A study of Mus musculus with 4 samples.

Results

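The mitochondrial ribosomal protein genes, whose symbols begin with Mrpl for the large and Mrps for the small subunit, were examined in mouse brown adipocytes that expressed Blnc1, a long noncoding RNA of brown fat, or a vector. Members were all genes with a probe set annotated with exactly 1 symbol made of Mrpl or Mrps and a number. Where a gene had several such probe sets, the one with the highest average signal in the 4 arrays was used. This gave 73 genes, 46 Mrpl and 27 Mrps, of 10926 genes named in this way on the arrays. The Blnc1 group held 2 arrays from brown adipocytes expressing Blnc1, and the vector group held 2 arrays from brown adipocytes expressing the vector. The genotype of both groups was labelled wild type, and preadipocytes of both were differentiated for 6 days. Total RNA was hybridised to Affymetrix arrays that read the 3' part of transcripts, and each value is a log2 expression level after normalization by the authors. The labels call the replicates biological without naming separate cultures or transductions, so the p-values cover no more than the variation among these 4 arrays, and 2 arrays per group limit the precision. The cells were profiled in bulk, so that a shift in the share of cells that differentiated and a shift in RNA per cell cannot be told apart.

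The mitochondrial ribosome translates the few messenger RNAs of the mitochondrial genome, all of which encode core subunits of the respiratory chain and the ATP synthase. Its ribosomal RNAs come from mitochondrial DNA, whereas all of its proteins are encoded in the nucleus, made in the cytosol and imported. The small subunit binds the messenger RNA and reads the codons, and the large subunit joins the amino acids and leads the new chain out through an exit tunnel close to the inner membrane. Brown adipocytes are packed with mitochondria, and their heat production through the uncoupling protein Ucp1 depends on a working respiratory chain.

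The array medians lay between 5.98 and 6.04. The probe set named after the Blnc1 transcript (C730029A08Rik) read 12.73 and 12.75 in the Blnc1 arrays, against 8.08 and 8.14 in the vector arrays. Of the brown adipocyte markers, Ucp1 read 7.97 and 8.05 in Blnc1 arrays against 5.01 and 5.01 in vector arrays, and the general adipocyte markers Pparg, Adipoq and Fabp4 were well above the array medians in all 4 arrays. Of 7 measured brown adipocyte markers 6 had positive differences, and 4 of them passed a limma adjusted p of 0.05 (Ucp1, Cidea, Cox7a1 and Cox8b). The 1 negative difference, in 1 of these general adipocyte markers, was -0.12, with both Blnc1 arrays below both vector arrays. All 5 measured markers of preadipocytes and fibroblasts had negative differences, of which that of Postn passed the test (limma adjusted p = 0.0455), with summed log2 levels of 36.16 and 36.38 in Blnc1 arrays against 38.24 and 38.29 in vector arrays; their part in the results below was not tested. The measured markers of macrophages (Adgre1), endothelium (Kdr) and skeletal muscle (Ckm, Myog) read between 4.04 and 5.10 in every array, below the array medians. All 18 spiked-in hybridization controls were lower in the Blnc1 group (median difference -0.27). Their medians were 8.78 and 8.99 in Blnc1 arrays against 9.09 and 9.23 in vector arrays. The Gapdh control, read at its 3' end minus its 5' end, stood at 0.29 and 0.27 in Blnc1 arrays against 0.38 and 0.45 in vector arrays. The Actb control, read in the same way, stood at 1.29 and 1.40 in Blnc1 arrays against 1.47 and 1.56 in vector arrays. The part of these control values in the results was not tested either.

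Most mitochondrial ribosomal protein genes read slightly higher in the Blnc1 cells, and none passed the test on its own. Of the 73 genes 63 had a positive log2 difference (Blnc1 minus vector), where 51.6% of all genes did, and the median was 0.15 against 0.0073 over all genes. The interquartile range was 0.073 to 0.23 (-0.10 to 0.12 over all genes), and the whole range was -0.11 to 0.52. The members were also brighter, with a median log2 level of 9.15 against 6.58 over all genes. The part of signal level in these comparisons with all genes was not tested. A difference of at least 1.2-fold was found for 15 genes, all of them higher in the Blnc1 cells. The share of all genes with such a difference was not counted, so this count has no background beside it. At an adjusted p of 0.05 (limma, Benjamini-Hochberg over all probe sets) 0 of the 73 genes passed, where 1.23% of all genes did (0.86% higher and 0.366% lower, or 0.988% and 0.723% after each array was centred on its median). The lowest adjusted p among the members was 0.0589. At an adjusted p of 0.10, 5 members passed, all higher, against 3% of all genes called higher and 1.99% lower. At an unadjusted p of 0.05, 24 members were higher and 0 were lower, against 11.7% and 9.08% of all genes. That count of 24 was 12 without Blnc1 replicate 1 and 7 without vector replicate 2.

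**Figure D1:**
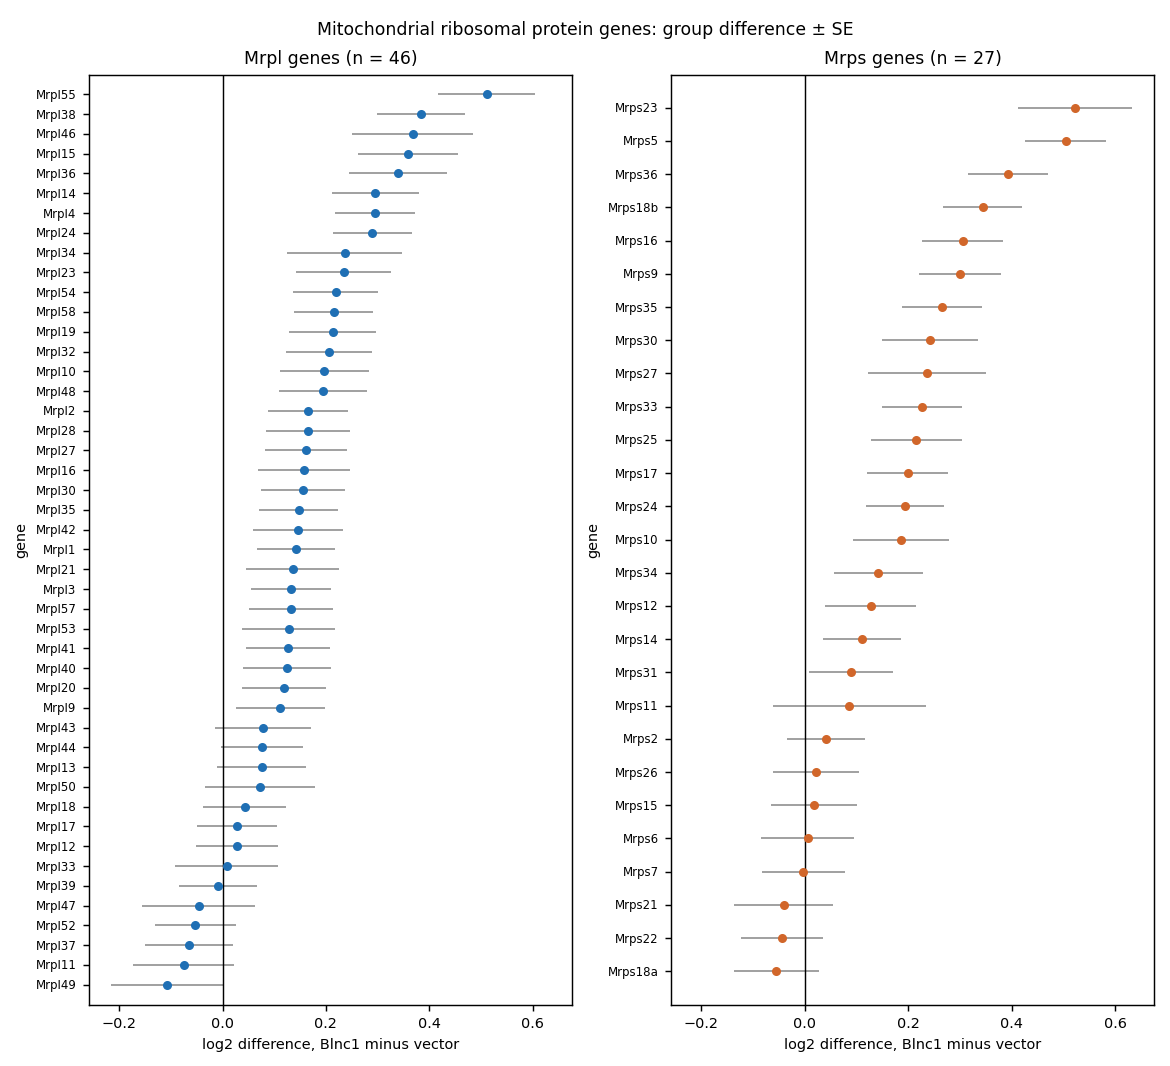
Log2 difference between the Blnc1 and the vector arrays (x axis, Blnc1 minus vector) for each of the 46 Mrpl genes (left) and 27 Mrps genes (right), sorted by size. Points are differences of group means over 2 arrays each and bars are the standard errors of the limma fit; 63 of the 73 points lie right of 0.

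Whether the test called any member depended on the settings of the fit. When the variance prior was allowed to depend on the signal level, 20 members passed an adjusted p of 0.05 (limma), 10 Mrpl and 10 Mrps, all higher in Blnc1 cells, while 6.38% of all genes were called higher and 4.94% lower. When only probe sets above the median signal were tested, 10 of 72 members passed, again all higher, against 5.92% of genes called higher and 3.47% lower. After each array was centred on its median, 1 member passed, Mrps5 (limma adjusted p = 0.0495). Without the filter or the centring, no member passed with the constant prior or with the robust prior.

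The group difference was then set against the differences between replicate arrays. Both Blnc1 arrays lay above both vector arrays for 52 of the 73 genes, where 28.3% of all genes had that order. The reverse order was found for 1 gene, Mrpl52, where 24.9% of all genes had it, and the arrays of the 2 groups overlapped for the other 20. The group difference was larger than both replicate differences for 45 members, all higher in Blnc1 cells (22.3% of all genes were higher and 19.3% lower by this measure). Replicate 2 was lower than replicate 1 for 65 of the 73 genes in the Blnc1 group and for 64 in the vector group, and for 57 genes in both. Over all 10926 genes these counts were 6745 in the Blnc1 group, 5527 in the vector group and 3715 in both.

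Of the 4 pairs of a Blnc1 with a vector array, the largest median difference over the members was 0.23, for Blnc1 replicate 1 minus vector replicate 2, with 71 of 73 genes positive. The smallest was 0.077, for Blnc1 replicate 2 minus vector replicate 1, with 52 genes positive. The pairs of the same replicate number had medians of 0.16 (replicate 1, 62 positive) and 0.14 (replicate 2, 61 positive). That smallest difference between groups was about as large as the medians between replicates, -0.080 in the Blnc1 and -0.069 in the vector group (replicate 2 minus replicate 1). Over all genes the pairs with the members' largest and smallest difference had medians of 0.027 and -0.0099. Those of the same replicate number had 0.021 (replicate 1) and -0.0053 (replicate 2) over all genes. The 4 arrays thus kept 1 order for the members. Median deviations from each gene's own mean were 0.12 and 0.033 in the Blnc1 arrays, against -0.036 and -0.11 in the vector arrays. The median of the hybridization controls and the Actb control ran in the reverse order, from Blnc1 replicate 1 up to vector replicate 2. Within the Blnc1 arrays the Gapdh control did not follow that order. The part of these controls in the order of the members was not tested.

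**Figure D2:**
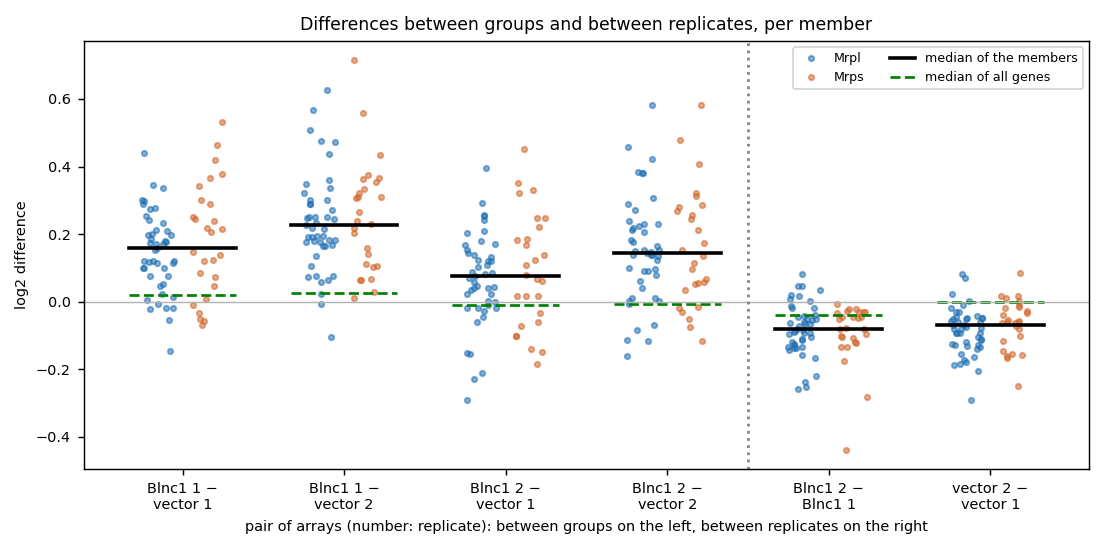
Log2 difference of each member (points; blue Mrpl, orange Mrps) for the 4 pairs of a Blnc1 and a vector array (left of the dotted line) and the 2 pairs of replicate arrays (right). Black bars are medians over the 73 members and dashed green bars medians over all genes; the members' medians are 0.077 to 0.23 between groups and -0.080 and -0.069 between replicates.

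**Figure D3:**
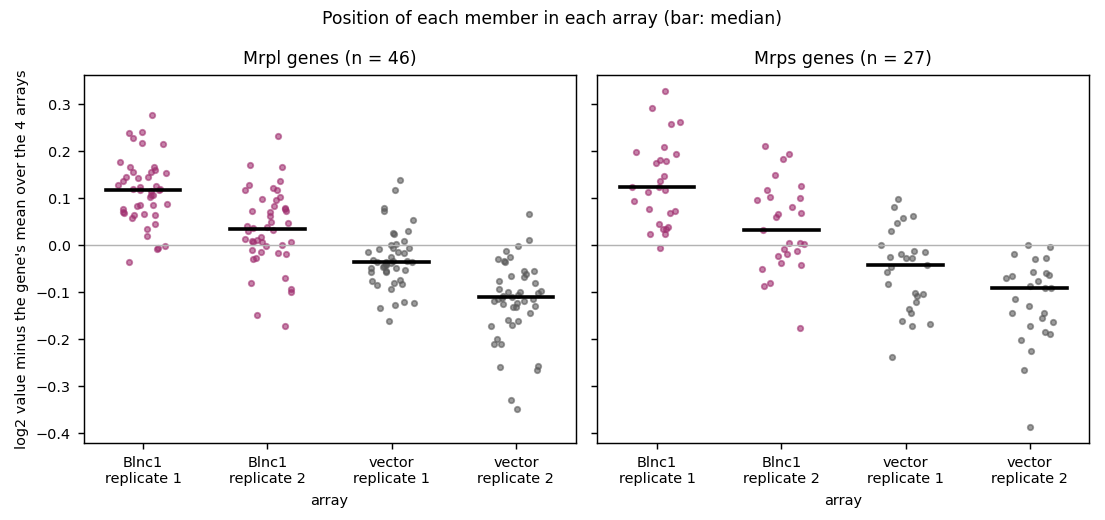
Each member's log2 value minus its own mean over the 4 arrays (y axis) in the 2 Blnc1 and 2 vector arrays (x axis), for Mrpl (left) and Mrps genes (right). Bars are medians, and both panels run in the same order from Blnc1 replicate 1 down to vector replicate 2.

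The members whose difference was largest were found in both subunits. Mrps23, a small subunit protein without a bacterial counterpart, read 8.84 and 8.70 in the Blnc1 arrays against 8.37 and 8.12 in the vector arrays, a log2 difference of 0.52 ± 0.11 (SE, limma adjusted p = 0.0934). The groups did not overlap, although vector replicate 2 lay below vector replicate 1 by a difference of -0.25. Mrpl55, a large subunit protein specific to mitochondria of animals, read 8.97 and 8.93 in Blnc1 arrays against 8.53 and 8.35 in vector arrays, a difference of 0.51 ± 0.093 (SE, limma adjusted p = 0.0749). Mrps5, whose bacterial counterpart lies at the entry of the messenger RNA channel and affects decoding accuracy, read 7.45 and 7.37 in Blnc1 arrays against 6.92 and 6.89 in vector arrays. Its difference of 0.50 ± 0.079 (SE) had the smallest adjusted p of the members (limma, 0.0589) and was several times the gap between its replicates. Mrps36 read 9.93 and 9.90 in Blnc1 arrays against 9.55 and 9.49 in vector arrays, with a difference of 0.39 ± 0.077 (SE, limma adjusted p = 0.0824). The product of Mrps36, despite its name, is now known as a subunit of the alpha-ketoglutarate dehydrogenase complex of the TCA cycle and not as a ribosomal protein.

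RefSeq promoter windows (GRCm38.p6, from 250 bases before to 50 after the start of a gene) were found for 65 of the 73 genes, 71 windows in all. They were searched on both strands for motifs of factors known to drive nuclear genes of mitochondria: GCGCA, any base and GCGC in a row for nuclear respiratory factor NRF1, CCGGAAG for ETS factors such as the GA-binding protein, AAGATGGCG for YY1, AAGGTCA for estrogen-related receptors and CACGTG for the E-box. No match to one of the NRF1, ETS and YY1 motifs overlapped a match to another of them in these windows, while 2 NRF1 matches overlapped each other in that of Mrps26. The NRF1 letters were found in 16.9% of the members' windows, against 9.52% of windows of all genes measured on the arrays and 4.60% of all RefSeq promoter windows. The ETS letters were found in 32.4%, against 17.1% and 8.86%, and the YY1 letters in 11.3%, against 2.94% and 1.40%. The receptor half-site (5.63%, against 3.32% and 4.72%) and the E-box (8.45%, against 9.99% and 7.15%) were nearer to the other windows in percentage points. These 2 shares rest on few windows, 4 for the half-site and 6, from 4 genes, for the E-box. A match is a description of the letters and not evidence of binding.

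**Figure D4:**
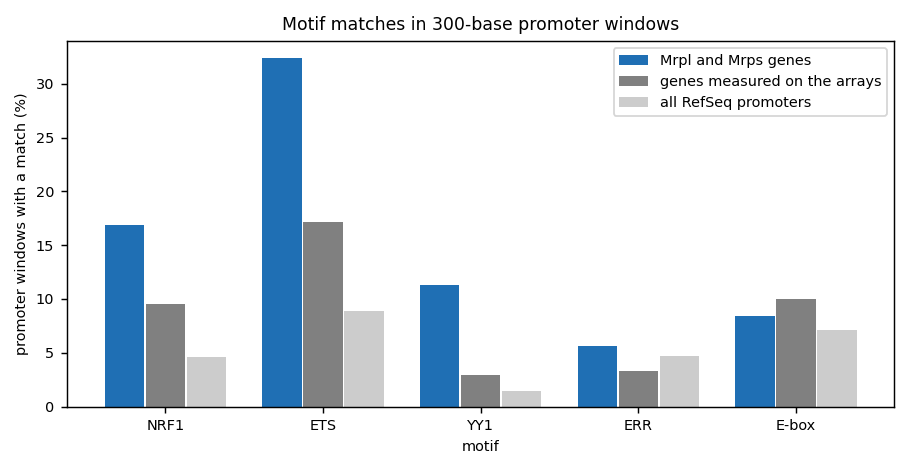
Share of promoter windows with at least 1 match (y axis, percent) for 5 motifs (x axis), in the windows of the mitochondrial ribosomal protein genes, of all genes measured on the arrays and of all RefSeq genes. The NRF1, ETS and YY1 bars are highest for the mitochondrial ribosomal protein genes.

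At least 1 of the NRF1, ETS and YY1 motifs was found for 37 of the 65 genes, and these had a median log2 difference of 0.13, with 31 positive. The 28 genes with none had a median of 0.15, with 24 positive. For NRF1 the medians were 0.094 with a match (12 genes) and 0.15 without (53 genes). They were 0.13 and 0.15 for ETS (23 and 42 genes), and 0.15 and 0.13 for YY1 (8 and 57 genes). The same motifs were present at both ends of the range of differences. This is shown here by 6 windows, for each motif 1 from a member near the top and 1 from a member near or below 0, printed 5' to 3' on the strand of the gene with the matches to the NRF1, ETS and YY1 letters in capitals. The first pair holds the NRF1 letters: Mrps9 (chr1:42850983-42851282, plus strand, log2 difference 0.30) and Mrpl39 (chr16:84735195-84735494, minus strand, -0.0087). The next pair holds the ETS letters: Mrps23 (chr11:88204138-88204437, plus strand, 0.52) and Mrps22 (chr9:98601630-98601929, minus strand, -0.044). The last pair holds the YY1 letters: Mrpl36 (chr13:73330759-73331058, plus strand, 0.34) and Mrpl37 (chr4:107066817-107067116, minus strand, -0.065).
Mrps9: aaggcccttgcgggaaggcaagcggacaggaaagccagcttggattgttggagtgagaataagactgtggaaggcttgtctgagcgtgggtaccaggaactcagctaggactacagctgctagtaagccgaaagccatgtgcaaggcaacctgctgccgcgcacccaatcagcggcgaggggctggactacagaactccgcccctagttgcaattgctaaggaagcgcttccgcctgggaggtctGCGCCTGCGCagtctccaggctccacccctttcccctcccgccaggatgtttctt
Mrpl39: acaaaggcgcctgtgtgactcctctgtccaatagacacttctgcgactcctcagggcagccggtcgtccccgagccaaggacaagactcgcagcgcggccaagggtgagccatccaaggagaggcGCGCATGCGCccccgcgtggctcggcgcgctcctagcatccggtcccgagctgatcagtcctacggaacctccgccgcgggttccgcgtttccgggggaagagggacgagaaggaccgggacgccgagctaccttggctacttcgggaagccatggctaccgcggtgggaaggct
Mrps23: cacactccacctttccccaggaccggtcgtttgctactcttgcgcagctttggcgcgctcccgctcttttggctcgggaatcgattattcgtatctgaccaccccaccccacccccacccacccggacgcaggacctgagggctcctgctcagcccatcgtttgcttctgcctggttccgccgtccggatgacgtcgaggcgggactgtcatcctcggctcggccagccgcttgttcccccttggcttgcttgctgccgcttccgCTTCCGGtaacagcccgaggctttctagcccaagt
Mrps22: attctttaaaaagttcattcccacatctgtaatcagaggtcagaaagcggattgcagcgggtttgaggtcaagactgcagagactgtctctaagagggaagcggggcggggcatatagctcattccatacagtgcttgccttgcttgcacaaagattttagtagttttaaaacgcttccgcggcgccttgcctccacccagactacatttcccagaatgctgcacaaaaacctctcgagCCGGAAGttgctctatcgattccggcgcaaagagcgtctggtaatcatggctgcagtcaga
Mrpl36: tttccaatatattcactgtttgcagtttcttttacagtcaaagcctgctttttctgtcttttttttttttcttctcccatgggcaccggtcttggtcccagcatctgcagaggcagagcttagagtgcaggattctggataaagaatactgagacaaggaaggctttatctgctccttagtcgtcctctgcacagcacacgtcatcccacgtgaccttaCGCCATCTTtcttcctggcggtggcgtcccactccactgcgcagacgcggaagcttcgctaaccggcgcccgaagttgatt
Mrpl37: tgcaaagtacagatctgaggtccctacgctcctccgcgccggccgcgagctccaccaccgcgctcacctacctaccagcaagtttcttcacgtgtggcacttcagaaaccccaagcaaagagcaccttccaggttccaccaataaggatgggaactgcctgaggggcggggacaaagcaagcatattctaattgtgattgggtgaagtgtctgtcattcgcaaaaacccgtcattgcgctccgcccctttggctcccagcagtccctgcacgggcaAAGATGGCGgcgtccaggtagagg
Each of the 6 windows holds 1 match to these 3 motifs, and the windows of Mrpl36 and Mrpl37 also hold the E-box letters, and that of Mrpl36 the receptor half-site, which are left in lower case. The YY1 letters read CGCCATCTT in Mrpl36, on the opposite strand, and AAGATGGCG in Mrpl37.

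In the large subunit, the proteins at the stalk that recruits translation factors had differences between -0.075 and 0.20. Mrpl12, the stalk protein proper, read 10.39 and 10.37 in Blnc1 arrays against 10.39 and 10.31 in vector arrays, and the groups overlapped. Mrpl10, which anchors it, read 8.83 and 8.69 in Blnc1 arrays against 8.59 and 8.54 in vector arrays, a difference of 0.20 ± 0.086 (SE, limma adjusted p = 0.291). Mrpl11, at the base of the stalk, stood at -0.075 and Mrpl53, a neighbour of the stalk, at 0.13. None of the 4 passed, and their values had either sign.

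Other large subunit proteins lie near the peptidyl transferase centre and the exit tunnel. Mrpl4 and Mrpl24, whose bacterial counterparts line the tunnel and its opening, differed by 0.29 ± 0.078 and 0.29 ± 0.076 (SE, limma adjusted p = 0.135 and 0.134). Mrpl4 read 9.33 and 9.27 in Blnc1 arrays against 9.03 and 8.98 in vector arrays. Mrpl24 read 9.60 and 9.59 in Blnc1 arrays against 9.33 and 9.28 in vector arrays. In both genes each replicate pair lay far closer together than the groups. Mrpl23, also at the tunnel opening, stood at 0.23 ± 0.092 (SE). Mrpl2 and Mrpl3, next to the catalytic centre in bacteria, and Mrpl27, whose bacterial counterpart reaches into it, stood at 0.17, 0.13 and 0.16, and in all of these the Blnc1 arrays lay above the vector arrays. Mrpl17, another protein of the tunnel opening, stood at 0.028, and Mrpl47, the counterpart of a bacterial protein there, at -0.046.

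In the central protuberance, where the large subunit faces the head of the small one, the members differed. Mrpl38, which is specific to mitochondria, read 7.59 and 7.54 in Blnc1 arrays against 7.25 and 7.12 in vector arrays, a difference of 0.38 ± 0.085 (SE, limma adjusted p = 0.10). Mrpl18, whose bacterial counterpart binds a small ribosomal RNA there, read 9.72 and 9.62 in Blnc1 arrays against 9.64 and 9.62 in vector arrays. These groups overlapped, and the difference was 0.043 ± 0.080 (SE). Mrpl46, another mitochondrion-specific protein, stood at 0.37 ± 0.12 (SE, limma adjusted p = 0.182), with 9.24 and 9.13 in Blnc1 arrays against 8.97 and 8.67 in vector arrays. Mrpl15 read 10.18 and 10.06 in Blnc1 arrays against 9.85 and 9.68 in vector arrays, and Mrpl36 8.42 and 8.32 against 8.12 and 7.94. Both are proteins with bacterial counterparts, and their differences were 0.36 ± 0.097 and 0.34 ± 0.095 (SE).

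Some Mrpl proteins have roles beyond structure. Mrpl58, a protein derived from a peptide release factor that can free stalled ribosomes, read 8.77 and 8.75 in Blnc1 arrays against 8.57 and 8.52 in vector arrays (difference 0.21 ± 0.076 SE, limma adjusted p = 0.212). Mrpl44, which carries a ribonuclease III-like domain, read 9.72 and 9.80 in Blnc1 arrays against 9.71 and 9.65 in vector arrays. Its groups were separated by less than the replicates of either group, and the difference was 0.076 ± 0.080 (SE). Mrpl14, the binding site of the silencing factor Malsu1, stood at 0.30 ± 0.084 (SE, limma adjusted p = 0.152).

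The 6 negative Mrpl genes were all close to 0. Mrpl49 had the lowest value of all members, with 8.86 and 8.62 in Blnc1 arrays against 8.91 and 8.78 in vector arrays, a difference of -0.11 ± 0.11 (SE) and overlapping groups. Mrpl11, Mrpl37, Mrpl52, Mrpl47 and Mrpl39 lay between -0.075 and -0.0087. Mrpl39, which resembles a tRNA synthetase, read 10.63 and 10.64 in Blnc1 arrays against 10.65 and 10.64 in vector arrays. Its 95% interval of -0.19 to 0.17 includes 0 and the median of the members, so a shift of that size is not excluded for it. The other Mrpl genes, from Mrpl33 to Mrpl34, were positive and lay between 0.0082 and 0.24.

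Among the Mrps genes, the next largest differences after those of Mrps23, Mrps5 and Mrps36 were those of Mrps18b and Mrps16. Mrps18b read 9.19 and 9.15 in Blnc1 arrays against 8.83 and 8.83 in vector arrays, a difference of 0.34 ± 0.076 (SE, limma adjusted p = 0.0997). Its paralog Mrps18a, which sits in the large subunit despite its name, read 9.37 and 9.26 in Blnc1 arrays against 9.40 and 9.34 in vector arrays (difference -0.055 ± 0.083 SE). The groups were apart for Mrps18b and overlapped for Mrps18a. Mrps16, a core protein whose loss causes a respiratory chain disease in humans, read 10.67 and 10.62 in Blnc1 arrays against 10.37 and 10.31 in vector arrays, a difference of 0.31 ± 0.078 (SE, limma adjusted p = 0.130). Mrps9 stood at 0.30 ± 0.080 and Mrps35 at 0.27 ± 0.077 (SE), both without overlap. Mrps30, likewise now placed in the large subunit, stood at 0.24 ± 0.093 (SE).

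Other small subunit proteins with bacterial counterparts had smaller differences. Mrps12, part of the decoding centre, read 8.72 and 8.60 in Blnc1 arrays against 8.58 and 8.48 in vector arrays (difference 0.13 ± 0.088 SE, limma adjusted p = 0.491). Mrps7, which binds the ribosomal RNA of the head, read 9.32 and 9.24 in Blnc1 arrays against 9.31 and 9.26 in vector arrays, and Mrps2 read 9.37 and 9.34 against 9.32 and 9.30. The Mrps7 arrays interleaved, and those of Mrps2 were separate but by less than 0.1. Mrps10, Mrps11 and Mrps15 stood at 0.19, 0.086 and 0.018. Mrps11 had the widest gap between replicates, with 8.31 and 7.87 in the Blnc1 arrays, against 8.02 and 7.99 in the vector arrays.

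Among the proteins specific to mitochondria, Mrps27, an RNA-binding pentatricopeptide repeat protein, stood at 0.24 ± 0.11 (SE), Mrps34 at 0.14 ± 0.086 and Mrps22 at -0.044 ± 0.079. Mrps22, mutated in a human respiratory chain disease, read 9.41 and 9.38 in Blnc1 arrays against 9.48 and 9.40 in vector arrays. Besides Mrps22, Mrps18a and Mrps7, only Mrps21 among the 27 Mrps genes was negative, at -0.041. The remaining Mrps genes not named here (Mrps6, Mrps14, Mrps17, Mrps24, Mrps25, Mrps26, Mrps31 and Mrps33) were positive and lay between 0.0057 and 0.23.

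Mrpl and Mrps genes were then set side by side. The median difference was 0.15 for the Mrpl genes, with 40 of 46 positive, and 0.19 for the Mrps genes, with 23 of 27 positive. Both Blnc1 arrays lay above both vector arrays for 33 Mrpl and for 19 Mrps genes, which is 71.7% and 70.4%. The difference between the medians, -0.042 (Mrpl minus Mrps), was 0.016 without Blnc1 replicate 1 and 0.0050 when all probe sets of a gene were averaged, so that its direction was not stable. It was -0.020 when Mrps18a and Mrps30 were counted in the large subunit and Mrps36 was left out. The Mrps genes were spread more widely, and their quartiles lay at 0.031 and 0.25, against 0.076 and 0.21 for the Mrpl genes.

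Most of the lower-numbered proteins have a bacterial counterpart of the same number, and most of the higher-numbered ones are specific to mitochondria, with exceptions such as Mrpl47. The 42 genes with numbers up to 36 (Mrpl) or 21 (Mrps) had a median of 0.15, with 38 positive. The 31 genes with higher numbers, Mrps36 included, had a median of 0.14, with 25 positive. By subunit the medians were 0.16 for lower-numbered Mrpl, 0.13 for higher-numbered Mrpl, 0.11 for lower-numbered Mrps and 0.22 for higher-numbered Mrps genes, on 27, 19, 15 and 12 genes. Of the 27 lower-numbered Mrpl genes 26 were positive, the exception being Mrpl11. Members with the brighter probe sets had a median of 0.13 and those with the dimmer ones 0.19.

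For 31 members further probe sets were on the arrays, 43 in all. Of these, 35 had the sign of the probe set used and 8 the opposite sign, none of the 8 with an unadjusted p under 0.05 in the limma fit. The further probe sets of the leading genes pointed the same way: those of Mrps23 stood at 0.60 and 0.27, and those of Mrps5 at 0.34, 0.24 and 0.092. The 3 probe sets of Mrps9 stood at 0.30, 0.26 and 0.33. Among the negative genes, the further probe sets of Mrpl11 stood at -0.11, -0.145 and -0.082, and that of Mrpl49 at -0.040. No further probe set passed either, the lowest adjusted p being 0.0593 for Mrps23 (limma). Opposite signs were found for 1 probe set each of Mrpl1, Mrpl15, Mrpl28, Mrpl30, Mrpl34, Mrpl39, Mrpl52 and Mrps25. The widest of these disagreements was in Mrpl34, where the probe set used stood at 0.24 and the other, below the array medians, at -0.20.

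Other genes of mitochondrial translation were then described from lists of their functions. None of these lists had a gene past an adjusted p of 0.05 in either direction (limma). The 4 measured ribosomal subunits with other names, Chchd1, Ptcd3, Gadd45gip1 and Dap3, were all positive, at 0.14, 0.096, 0.089 and 0.067. Of 21 assembly and ribosomal RNA factors 15 were positive, with a median of 0.11. Among them Ngrn, needed for the large ribosomal RNA, read 8.13 and 8.06 in Blnc1 arrays against 7.76 and 7.67 in vector arrays (difference 0.38 ± 0.081 SE, limma adjusted p = 0.0939). Tfb1m, which methylates the small ribosomal RNA, stood at 0.30 ± 0.079 and Malsu1 at 0.28 ± 0.076 (SE).

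All 8 measured translation factors were positive, with a median of 0.20, but the groups overlapped for 5 of them. All 8 were lower in Blnc1 replicate 2 than in Blnc1 replicate 1. Blnc1 replicate 1 had median differences of 0.25 and 0.37 from the vector arrays, and Blnc1 replicate 2 of 0.041 and 0.064. Mtif2, the initiation factor, read 9.05 and 8.96 in Blnc1 arrays against 8.61 and 8.67 in vector arrays (difference 0.37 ± 0.081 SE, limma adjusted p = 0.10), and the elongation factor Tufm stood at 0.24 ± 0.090 (SE). The mitochondrial tRNA synthetases were mixed, with 9 of 14 positive and a median of 0.067. Fars2, which charges phenylalanine tRNA, was highest among them, with 6.27 and 6.15 in Blnc1 arrays against 5.70 and 5.63 in vector arrays (difference 0.55 ± 0.085 SE, limma adjusted p = 0.0587). All 5 measured genes of mitochondrial transcription and RNA stability were positive and without overlap between the groups: Lrpprc at 0.30, Tfb2m at 0.27, the DNA-packaging factor Tfam at 0.25, Tefm at 0.24 and the polymerase Polrmt at 0.13. Cytosolic ribosomal proteins, the counterparts in the rest of the cell, had a median of 0.010, with 36 of 65 positive and none past the test. Their genes were brighter, with a median log2 level of 11.80 against 9.15 for the members. The part of signal level in this contrast was not tested.

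**Figure D5:**
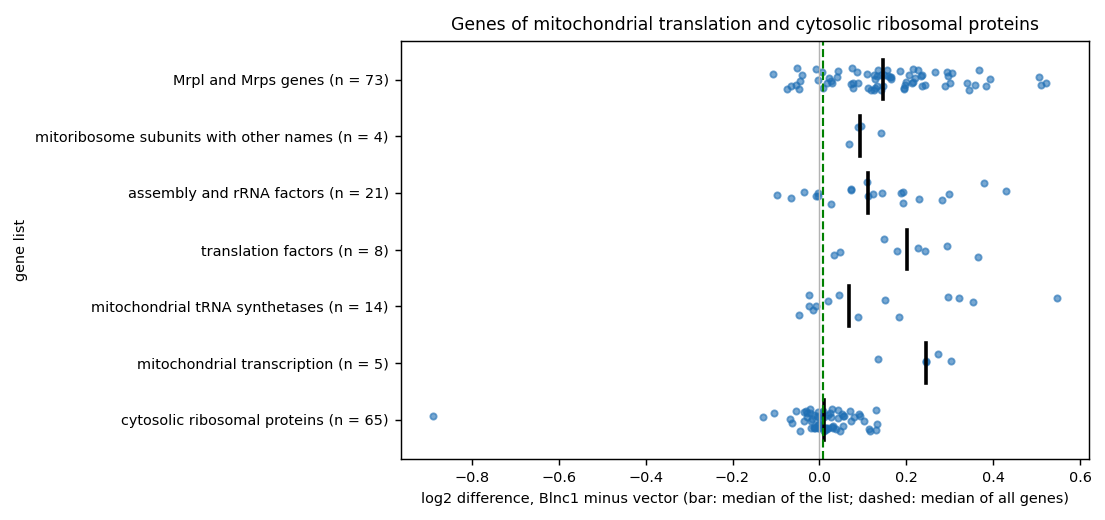
Log2 difference (x axis, Blnc1 minus vector) of each gene (points) in the mitochondrial ribosomal protein genes, 5 further lists of mitochondrial gene expression and the cytosolic ribosomal proteins (rows). Bars are the median of each list and the dashed line is the median of all genes; the bars lie at 0.15 for the mitochondrial and 0.010 for the cytosolic ribosomal proteins.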

How the data were processed

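The deposited table gives log2 expression for 23634 probe sets, 35 of them controls, in each of the 4 arrays. The authors made these log2 values with RMA, a method that corrects background, normalizes and summarises probes, with affy and limma also named, per the submitters' processing notes; versions, settings and the choice of probe sets are not given in the sources used here. The log2 scale was read from the range of 2.70 to 13.3. Gene names came from the platform annotation in GEO: of 23599 tested, 16692 had 1 symbol, 372 several (left unnamed) and 6535 none. All 73 members matched RefSeq by Entrez ID under the same symbol. Groups came from the sample titles.

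The Blnc1 and vector arrays were compared with limma 3.58.1 in R 4.3.3 (lmFit, eBayes, two-sided, no covariate, no filter), with Benjamini-Hochberg adjustment over all probe sets and a threshold of 0.05; the script was tested on simulated data. The members, lists and named genes (the extremes of each subunit and a set fixed by role) were chosen with earlier results of these data known. Lists are described by counts and medians only. Alternatives were other variance priors, normalizations, a signal filter, other choices of probe set, the replicate number as a block, other thresholds and leaving out each array.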

Additional observations from a re-analysis of the deposited data

How the results depend on the processing

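The median log2 difference of the members was positive under every alternative run, from 0.11 without Blnc1 replicate 1 to 0.20 without Blnc1 replicate 2, and 55 to 68 members were positive. The count of members past the threshold, 0 in the main analysis, was 20 with a variance prior that depends on the signal level, 10 with the signal filter (which also tests fewer probe sets), 1 (Mrps5) after median centring, 5 at an adjusted p of 0.10 (limma) and 24 at an unadjusted p of 0.05; it was 0 in each fit that left out an array, and the causes were not tested. With the replicate number as a block no member passed and the lowest adjusted p was 0.104 (limma); over all genes 134 passed in the main analysis, 19 with that block and 3 to 23 without 1 array. The replicate differences of the groups correlated by 0.089 over all probe sets, and with 2 pairs the numbers were not taken to pair the arrays. The Mrpl minus Mrps median, -0.042, ranged from -0.042 to 0.016 over the fits without 1 array, was -0.020 with subunits assigned by structure and 0.0050 with the mean of all probe sets of a gene.

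Of 597 comparisons of single named members with an alternative, 556 kept direction and side of the threshold, 26 newly passed and 15 changed sign. No member passed in the main analysis, so keeping the side of the threshold meant still not passing, and no called value could change sign. With the mean of all probe sets Mrpl28 (-1.7e-04) and Mrpl39 (0.063) changed sign. The other sign changes came from leaving out 1 array, where the values ranged from -0.18 to 0.027 for Mrpl11, -0.013 to 0.068 for Mrpl12, -0.0052 to 0.091 for Mrpl18, -0.13 to 0.0025 for Mrpl37, -0.17 to 0.079 for Mrpl47, -0.23 to 0.011 for Mrpl49, -0.13 to 0.31 for Mrps11, -0.042 to 0.077 for Mrps15, -0.12 to 0.036 for Mrps21 and -0.043 to 0.037 for Mrps7. With 2 arrays a group the median standard error of a member's difference was 0.083, which limits what single genes can show.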
